A study of Homo sapiens and Mus musculus with 13 samples.

Results

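Cancer-testis antigen genes were followed in MDA-MB-231, a mesenchymal-like line of human triple-negative breast cancer. All symbols beginning with MAGEA, MAGEB, MAGEC, XAGE, GAGE, PAGE, SSX, CTAG or SPANX and then a letter or digit were taken from the human expression table, in which a label can join several symbols with commas. The rule found 72 labels among the 24523 labels of the table. Of these, 61 belong to the cancer-testis antigen families by name, counting the non-coding neighbours MAGEA8-AS1 and SPANXA2-OT1. The other 11 share only the letters, namely 10 CTAGE labels and SSX2IP, whose product is a binding partner of SSX2, and they are given apart.

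Expression was measured by RNA-Seq in 7 libraries of the line, each from cells carrying Cas9 and guide RNAs from lentivirus and selected with puromycin. The Control line (1 library) carried a guide against GFP. The TRIM11-KD lines carried TRIM11 guide 1 (TRIM11-KD1) or guide 2 (TRIM11-KD2), and the KDM5C-KD lines carried KDM5C guide 1 (KDM5C-KD1) or guide 2 (KDM5C-KD2). The double knockdown lines both carried KDM5C guide 2, with TRIM11 guide 1 in DKD1 and TRIM11 guide 2 in DKD2, so a KDM5C guide was present in 4 libraries and absent from 3, and the same held for a TRIM11 guide. TRIM11 is a ubiquitin ligase, KDM5C is an X-linked histone H3 lysine 4 demethylase, and the study asked how loss of each changes gene expression in these cells. KDM5C guide 1 and the Control guide are in 1 line each, where line and guide cannot be told apart, and p-values measure the spread between these lines only.

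Cancer-testis antigens are proteins normally made in male germ cells and silent in most other tissues, and many tumours make them again. Most of the families here lie in clusters of near-identical copies on the X chromosome. In somatic cells their promoters are typically kept silent by DNA methylation at CG dinucleotides, and losing that methylation is a known route to their expression. MAGE proteins bind and direct ubiquitin ligases of the RING type, SSX proteins are repressors found in fusion genes of synovial sarcoma, and SPANX proteins are part of the sperm head.

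Values are FPKM, fragments scaled to transcript length and to the library's total, which allow levels of different genes to be compared per length. Summed over the table they came to between 493570 and 513480 in the 7 libraries. Absolute depth is unknown. From the smallest steps between low values, the depth relative to Control was lowest in KDM5C-KD2 (0.732) and between 0.863 and 1.12 in the other knockdown lines. KDM5C itself was at 30.3, 29.8 and 28.4 FPKM in the libraries without a KDM5C guide (Control, TRIM11-KD1, TRIM11-KD2) and at 20.6, 21.4, 18.8 and 22.7 FPKM in those with one (KDM5C-KD1, KDM5C-KD2, DKD1, DKD2), a difference of -0.49 ± 0.10 on the log2 scale (SE, limma adjusted p = 0.345). TRIM11 was at 12.6 FPKM in Control, and at 10.6 and 9.38 in TRIM11-KD2 and DKD2. The library labelled TRIM11-KD1 was at 13.4 FPKM and the library labelled DKD1 at 16.1, so the RNA of the targeted gene was not lower there. A guide against a coding exon need not lower the RNA, and the term TRIM11 guide below refers to the label.

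The mesenchymal markers of the line were high, with vimentin between 1038 and 1309 FPKM, and the estrogen receptor gene ESR1 stayed under 1 FPKM. The epithelial and luminal genes of the list were not all low, with the keratins KRT8 at 374.6 to 621.8 and KRT18 at 296.2 to 440.5 FPKM and ERBB2 at 17.8 to 23.7 FPKM. Of 10 germ cell markers such as DDX4 and DAZL, none reached 1 FPKM in any library, 5 were listed at 0 in all of them, and their sum lay between 0.132 and 0.267 FPKM. In bulk RNA, fewer expressing cells and less RNA per cell cannot be told apart.

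In all, 4 promoter sequences are shown, namely those of the main MAGEA pair, which share a sequence, of neighbours MAGEC1 and MAGEC2 and of SSX1. These genes carry most of the patterns below. Each runs from 250 bases before to 50 bases after the RefSeq start (GRCh38.p14 coordinates), 5′ to 3′ on the gene's strand, with CG dinucleotides in capitals. Promoters were found for 16 symbols of the expressed members.

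MAGEA3 (chrX:152698544-152698843, plus strand), the same over all 300 bases in MAGEA6 (chrX:152769640-152769939, minus strand): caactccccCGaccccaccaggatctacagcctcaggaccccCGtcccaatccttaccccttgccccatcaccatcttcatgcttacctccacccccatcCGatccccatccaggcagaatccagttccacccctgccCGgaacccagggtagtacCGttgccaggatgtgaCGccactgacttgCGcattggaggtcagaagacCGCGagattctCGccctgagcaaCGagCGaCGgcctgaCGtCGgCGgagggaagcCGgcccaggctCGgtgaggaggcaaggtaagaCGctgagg

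MAGEC2 (chrX:142205241-142205540, minus strand): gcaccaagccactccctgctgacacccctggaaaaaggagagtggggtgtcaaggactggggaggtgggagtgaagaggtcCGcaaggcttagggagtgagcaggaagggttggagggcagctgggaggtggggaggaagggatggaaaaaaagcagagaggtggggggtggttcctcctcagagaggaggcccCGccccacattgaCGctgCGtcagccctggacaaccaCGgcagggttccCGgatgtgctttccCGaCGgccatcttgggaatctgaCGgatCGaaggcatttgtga

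MAGEC1 (chrX:141903644-141903943, plus strand): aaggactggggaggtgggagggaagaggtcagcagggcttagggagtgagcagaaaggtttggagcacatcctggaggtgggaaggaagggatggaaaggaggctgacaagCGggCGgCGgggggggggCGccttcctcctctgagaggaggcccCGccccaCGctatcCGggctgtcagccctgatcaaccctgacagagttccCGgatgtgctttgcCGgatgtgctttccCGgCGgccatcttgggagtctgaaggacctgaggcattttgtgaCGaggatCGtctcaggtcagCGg

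SSX1 (chrX:48255142-48255441, plus strand): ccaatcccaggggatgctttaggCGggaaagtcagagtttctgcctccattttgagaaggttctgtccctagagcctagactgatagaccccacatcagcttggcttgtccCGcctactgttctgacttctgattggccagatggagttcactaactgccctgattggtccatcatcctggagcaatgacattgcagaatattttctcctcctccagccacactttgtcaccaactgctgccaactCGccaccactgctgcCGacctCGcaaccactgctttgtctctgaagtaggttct

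The MAGEA3 and MAGEA6 windows hold 19 CG each, MAGEC1 holds 14, MAGEC2 holds 10 and SSX1 holds 5, against a median of 14 over 27305 RefSeq promoters. The medians were 11 for the 16 expressed members and 10 for 34 members under 1 FPKM. The MAGEC1 and MAGEC2 windows were 76.2% identical over an aligned 277 bases. The letters CCGGAA, read by ETS factors, occurred on either strand in 2 of the 16 windows (12.5%, all promoters 17.6%), MAGEA3 and MAGEA6, and in 1 of the 34 under 1 FPKM. TCCCGC, the core bound by E2F6, occurred in 2 of 16, namely SSX1 and XAGE1B (12.5%, all promoters 26.8%), and in 12 of the 34 under 1 FPKM. The E-box CACGTG occurred in 3 of 16, namely PAGE1, PAGE2B and PAGE5 (18.8%, all promoters 7.4%), and in 9 of the 34 under 1 FPKM (26.5%). GGATGTG, letters chosen after the sequences were seen, occurred in 6 of 16 (37.5%), all of them MAGEA or MAGEC genes, in 8 of 34 under 1 FPKM (23.5%), and in 4.3% of all promoters. Many of these windows are copies of each other, so they are not independent counts.

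Expression at 1 FPKM or more in any library was found for 19 of the 72 labels, of which 17 were cancer-testis antigen labels. They were 5 of 11 MAGEA labels (MAGEA1, MAGEA3, MAGEA6, MAGEA11 and the joint label CSAG4,MAGEA12), 1 of 9 MAGEB labels (MAGEB1,MAGEB4), all 3 MAGEC labels, 2 of 5 XAGE labels (XAGE1B and XAGE1B,XAGE1E), 4 of 6 PAGE labels (PAGE1, PAGE2, PAGE2B, PAGE5), 1 of 9 SSX labels (SSX1) and 1 of 9 SPANX labels (SPANXD). None of the 7 GAGE labels and neither of the CTAG labels, which hold the gene of the antigen NY-ESO-1, reached it. Among the remaining 53 labels, 28 were listed at 0 in all libraries and 25 lay between 0 and 0.582 FPKM. Just inside the limit was MAGEB1,MAGEB4 with a highest value of 1.11 FPKM, and just outside were SSX8 (0.582), MAGEB2 (0.514) and CTAGE4 (0.509), all 4 with their highest value in KDM5C-KD2. The labels MAGEA1, MAGEA11, MAGEC3 and MAGEB1,MAGEB4 reached 1 FPKM in KDM5C-KD2 only, so that 15 labels remained expressed without that library.

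**Figure D1:**
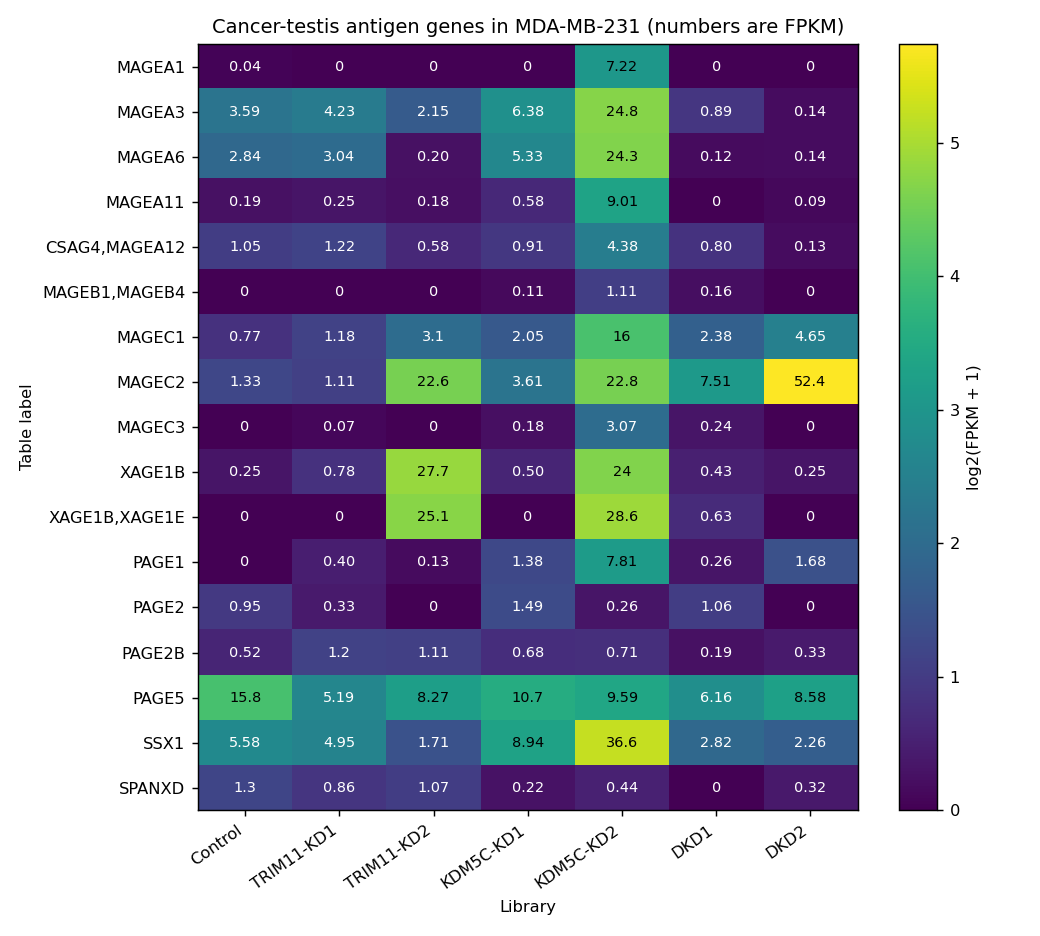
FPKM of the 17 cancer-testis antigen labels that reached 1 FPKM, by table label (rows) and library (columns), with colour as log2(FPKM + 1) and the FPKM printed in each cell. KDM5C-KD2 is the brightest column for most rows, MAGEC2 is brightest in DKD2, and PAGE5 is present in all 7 libraries.

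Every expressed cancer-testis antigen gene with a position in the annotation lies on the X chromosome (GRCh37). MAGEA3 (chrX:151934652-151938240) and MAGEA6 (chrX:151867214-151870825) share a cluster with MAGEA1 (chrX:152481520-152486116). MAGEC3 (chrX:140926102-140985618), MAGEC1 (chrX:140991680-140997160) and MAGEC2 (chrX:141290128-141293076) lie next to each other, with SPANXD (chrX:140785568-140786896) close by. PAGE2B (chrX:55101463-55105342), PAGE2 (chrX:55115451-55119275) and PAGE5 (chrX:55246779-55250541) form another cluster, and SSX1 (chrX:48114827-48126879), PAGE1 (chrX:49452050-49460587) and XAGE1B (chrX:52235228-52243954) lie on the same short arm. Across 368 other tested X-linked genes the median log2 ratio to Control was 0.047 in KDM5C-KD2. It was between -0.163 (DKD1) and -0.021 (TRIM11-KD1) in the other lines. The median over 11140 autosomal genes was between -0.018 and 0 in all knockdown lines.

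Close copies limit what can be said of single genes, because reads that match several copies can be split among them. MAGEA3 and MAGEA6 transcripts were 98.6% identical over 1645 aligned bases, and both were at least 90% identical to MAGEA2. MAGEA12 was 91.6% identical to MAGEA3 and 87.9% to MAGEA6. PAGE2 and PAGE2B were 95.9% identical, PAGE2B and PAGE5 93.3%, and SPANXD and SPANXA2 97.3%. XAGE1B and XAGE1E were 100% identical, so their rows are also given summed, as XAGE1. In the counts of members XAGE1B and XAGE1B,XAGE1E stay separate labels, as in the table. SSX1 was 91.6% identical to SSX4B, which was listed at 0 in all libraries.

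All cancer-testis antigen rows together came to 36.7 FPKM in Control, 27.6 in TRIM11-KD1, 95.5 in TRIM11-KD2, 45.6 in KDM5C-KD1, 230.6 in KDM5C-KD2, 25.4 in DKD1 and 71.6 in DKD2. The KDM5C-KD2 library was thus the highest, while both double knockdown lines, which carry the same KDM5C guide, were far below it. The members fell into several patterns over the libraries, described in turn.

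MAGEA3 and MAGEA6, whose proteins bind the ligase TRIM28, were the main MAGEA genes of the line. MAGEA3 was at 3.59 FPKM in Control, 4.23 in TRIM11-KD1, 2.15 in TRIM11-KD2, 6.38 in KDM5C-KD1, 24.8 in KDM5C-KD2, 0.887 in DKD1 and 0.138 in DKD2. MAGEA6 was at 2.84, 3.04, 0.203, 5.33, 24.3, 0.123 and 0.141 FPKM in the same order. Both KDM5C-KD lines were above Control and both double knockdown lines were below every other library. Summed, the pair came to 6.43 FPKM in Control, 49.1 in KDM5C-KD2 and 0.279 in DKD2, so the order of these libraries does not rest on how reads were split between the copies.

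The other MAGEA genes were highest in KDM5C-KD2. MAGEA11 was at 9.01 FPKM there and between 0 and 0.581 in the other 6 libraries. MAGEA1, the founding member of the family, was at 7.22 FPKM there, at 0.0352 in Control and listed at 0 in the other 5. The label CSAG4,MAGEA12 was at 4.38 FPKM in KDM5C-KD2, at 1.05 in Control and lowest in DKD2 (0.134). In the same region, CSAG1 was at 0.926 FPKM in Control, 2.67 and 6.63 in the KDM5C-KD lines, and 0.180 and 0.113 in the double knockdown lines, so that, as for MAGEA3, the KDM5C-KD lines were highest and the double knockdown lines lowest.

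SSX1 was at 5.58 FPKM in Control, 4.95 in TRIM11-KD1, 1.71 in TRIM11-KD2, 8.94 in KDM5C-KD1, 36.6 in KDM5C-KD2, 2.82 in DKD1 and 2.26 in DKD2. All 4 libraries with a TRIM11 guide lay below all 3 without one. Of the 16 tested members this held for SSX1 and PAGE5, and of all 12636 tested genes for 4.55%.

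PAGE5 was at 5.19 FPKM or more in every library. It was at 15.8 FPKM in Control, 5.19 in TRIM11-KD1, 8.27 in TRIM11-KD2, 10.7 in KDM5C-KD1, 9.59 in KDM5C-KD2, 6.16 in DKD1 and 8.58 in DKD2. The highest value with a TRIM11 guide (8.58) was just under the lowest without (9.59). Its copies PAGE2 and PAGE2B stayed at or below 1.49 and 1.20 FPKM, and PAGE2 was listed at 0 in TRIM11-KD2 and DKD2.

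MAGEC2, whose protein also binds TRIM28, followed the line numbers. It was at 1.33 FPKM in Control, 1.11 in TRIM11-KD1, 22.6 in TRIM11-KD2, 3.61 in KDM5C-KD1, 22.8 in KDM5C-KD2, 7.51 in DKD1 and 52.4 in DKD2. All 3 lines numbered 2 were above all lines numbered 1 and Control. MAGEC1 had the same split. It was at 3.10, 16.04 and 4.65 FPKM in TRIM11-KD2, KDM5C-KD2 and DKD2 against 0.774, 1.18, 2.05 and 2.38 in Control, TRIM11-KD1, KDM5C-KD1 and DKD1. Among the lines numbered 2, MAGEC1 was highest in KDM5C-KD2 and MAGEC2 in DKD2. These were 2 of 16 members with that split, which 6.76% of all tested genes had. The split was not among the planned comparisons, so the count is a description. Their neighbour MAGEC3 was at 3.07 FPKM in KDM5C-KD2 and at most 0.245 elsewhere.

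XAGE1 was high in a different pair of lines. Summed over all rows naming XAGE1B or XAGE1E, it was at 2.33 FPKM in Control, 3.00 in TRIM11-KD1, 53.8 in TRIM11-KD2, 1.95 in KDM5C-KD1, 60.2 in KDM5C-KD2, 2.25 in DKD1 and 0.609 in DKD2. TRIM11-KD2 and KDM5C-KD2 share no guide, and DKD2, which carries the guides of both, was the lowest library. The single highest row was listed at 0 in Control, TRIM11-KD1, KDM5C-KD1 and DKD2, so no fold is given for it.

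PAGE1 was listed at 0 in Control and was at 0.403 FPKM in TRIM11-KD1, 0.126 in TRIM11-KD2, 1.38 in KDM5C-KD1, 7.81 in KDM5C-KD2, 0.260 in DKD1 and 1.68 in DKD2. SPANXD was at 1.30, 0.857 and 1.07 FPKM in Control and the TRIM11-KD lines, and at 0.217, 0.442, 0 and 0.318 in KDM5C-KD1, KDM5C-KD2, DKD1 and DKD2. It was the 1 tested member with every library with a KDM5C guide below every library without (all tested genes 5.07%), at levels near the limit of expression. SPANXD was tested only because of its level in the libraries without a KDM5C guide, which favours that order.

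**Figure D2:**
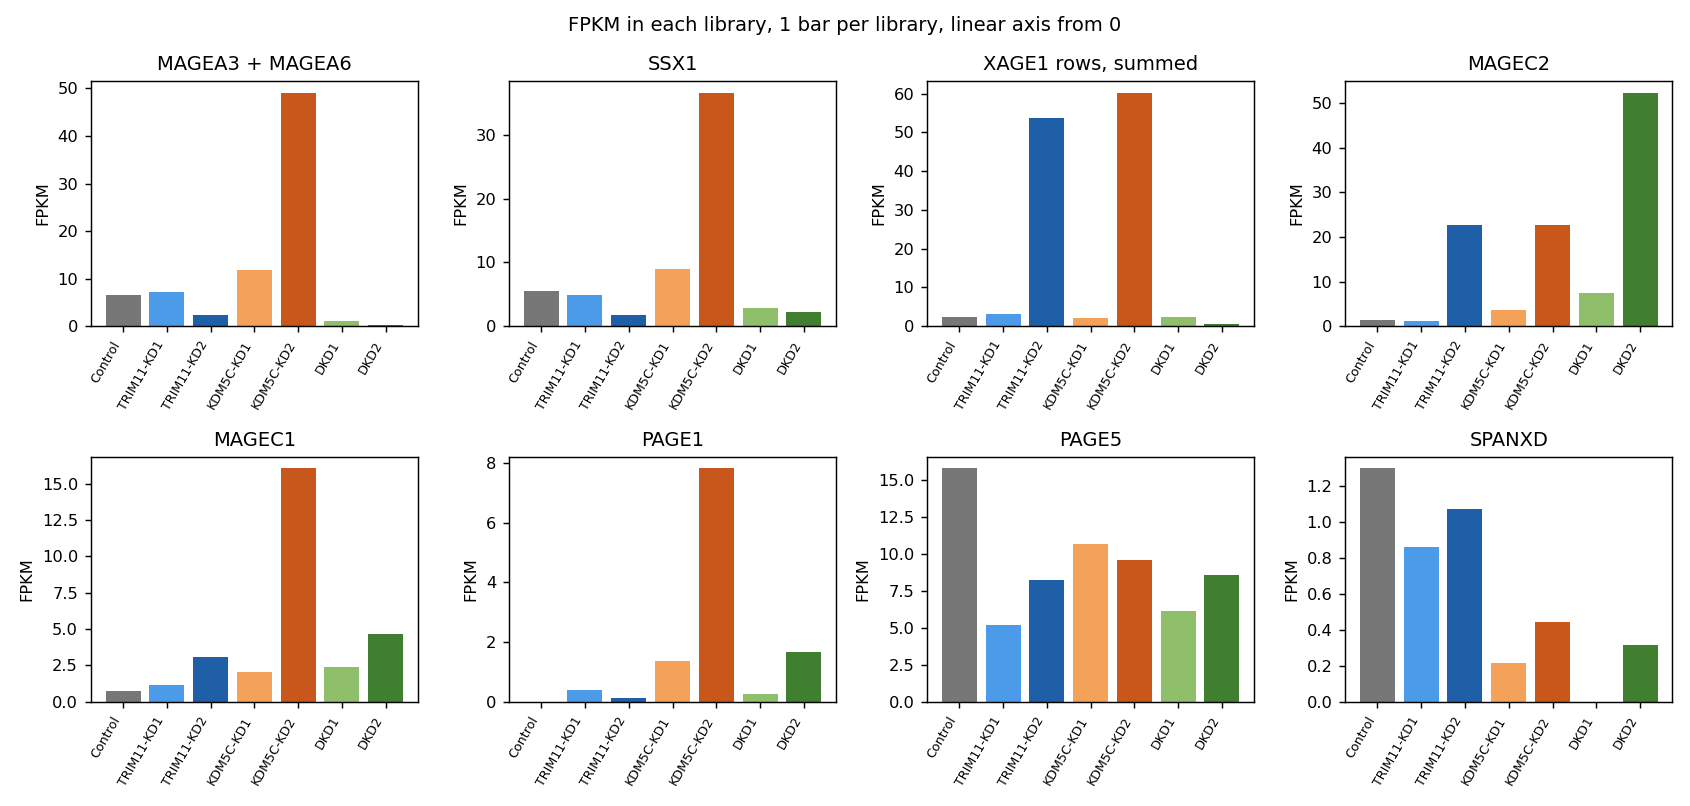
FPKM (vertical axis, linear from 0, a separate scale in each panel) in each of the 7 libraries, 1 bar a library, for the MAGEA3 and MAGEA6 sum, SSX1, the XAGE1 sum, MAGEC2, MAGEC1, PAGE1, PAGE5 and SPANXD. MAGEA3 and MAGEA6, SSX1, MAGEC1 and PAGE1 peak in KDM5C-KD2, XAGE1 in TRIM11-KD2 and KDM5C-KD2, MAGEC2 in DKD2, and PAGE5 and SPANXD in Control.

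Of the 16 tested cancer-testis antigen labels, 10 had their highest value in KDM5C-KD2, as did 24.3% of all tested genes. Control held the highest value of 2 (all tested genes 16.1%), and TRIM11-KD1, TRIM11-KD2, KDM5C-KD1 and DKD2 of 1 each (12%, 9.14%, 7.04% and 18.5%), while DKD1 held that of 0 (12.9%). In 9 of them (SSX1, MAGEA3, MAGEA6, MAGEC1, PAGE1, MAGEA11, CSAG4,MAGEA12, MAGEA1 and MAGEC3) KDM5C-KD2 was at least 1.5 times above each other library on FPKM + 0.1, as in 2.45% of all tested genes. MAGEC2 stood that far above in DKD2 (0.973%). This description was chosen after the values were seen, and MAGEA1, MAGEA11 and MAGEC3 were tested only because of their level in KDM5C-KD2, which makes them high there by construction. KDM5C-KD2 was also the shallowest library. Whether depth has a part in this was not tested.

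**Figure D3:**
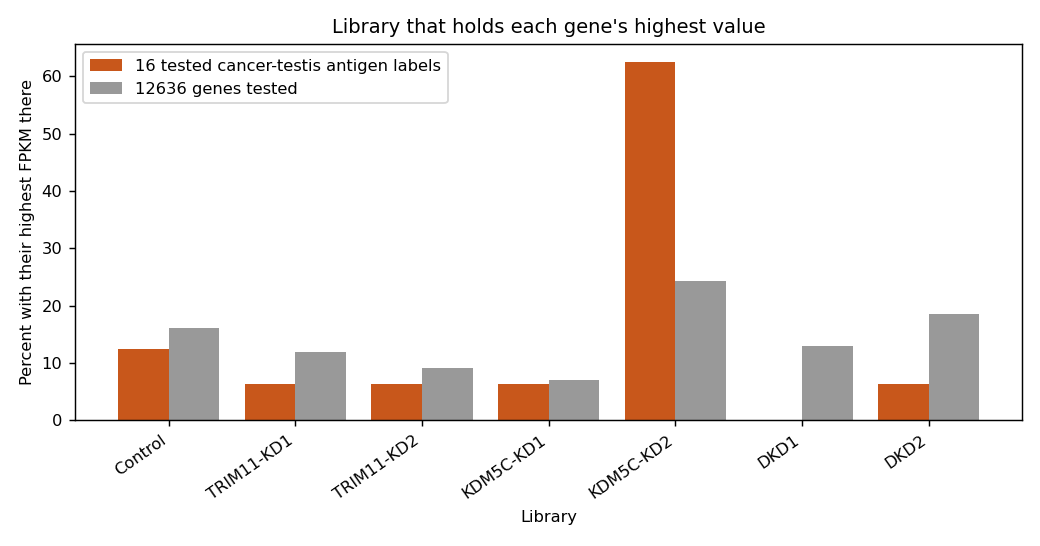
Percent of labels (vertical axis, from 0) whose highest FPKM was in each library, for the 16 tested cancer-testis antigen labels (orange) and all 12636 tested genes (grey). KDM5C-KD2 holds the highest value of 10 of the 16 and of 24.3% of all genes.

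Against the single Control library, 9 of 16 members were at least 1.5 times higher in both KDM5C-KD lines (MAGEC2, SSX1, XAGE1B, MAGEA3, MAGEA6, MAGEC1, PAGE1, MAGEA11 and MAGEC3, all tested genes 4.84%), on FPKM + 0.1 and with no test. PAGE1 and MAGEC3 were listed at 0 in Control. MAGEA11 and MAGEC3 were tested only through KDM5C-KD2, so their level in 1 of the lines was fixed by the filter. PAGE1 reached the mean of 0.5 FPKM only through the libraries with a KDM5C guide, which favours its place here. SPANXD was at least 1.5 times lower in both KDM5C-KD lines (3.68%), and without its level in Control it would not have been tested. In both TRIM11-KD lines 3 members were higher (XAGE1B, PAGE1 and PAGE2B, all tested genes 2.80%) and PAGE5 and PAGE2 were lower (2.32%). PAGE2B reached the mean of 0.5 FPKM only through the TRIM11-KD lines, and PAGE2 only through libraries without a TRIM11 guide. The filter thus favours PAGE2B as higher and PAGE2 as lower. In both double knockdown lines MAGEC2, MAGEC1 and PAGE1 were higher (5.38%), and PAGE5, SSX1, MAGEA3, MAGEA6 and SPANXD were lower (4.59%). These 3 comparisons share the Control library. XAGE1B is counted in them by its own row only. The XAGE1 sum was at 2.33 FPKM in Control, 1.95 in KDM5C-KD1 and 3.00 in TRIM11-KD1. It was thus not 1.5 times higher in both KDM5C-KD lines or in both TRIM11-KD lines. The number of members at 1 FPKM or more was 7 in Control, 8 and 9 in TRIM11-KD1 and TRIM11-KD2, and 8 in KDM5C-KD1. It was 14 in KDM5C-KD2 and 5 in each double knockdown line. Of the 14, 4 are members expressed only in KDM5C-KD2. Each label was taken by its row of highest mean. Another row of XAGE1B,XAGE1E was at 2.08 FPKM in Control, 2.22 in TRIM11-KD1, 1.26 in KDM5C-KD1 and 1.05 in DKD1. The share of all genes was not counted, so these numbers are descriptions.

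To ask which members moved with a guide, log2(FPKM + 1) was fitted with limma on the presence of a KDM5C guide and of a TRIM11 guide in all 7 libraries. The fit covered 12636 genes whose mean reached 0.5 FPKM, 16 cancer-testis antigen labels among them. No member had an adjusted p under 0.05 in limma for either guide. At that limit 1 of all genes passed for KDM5C (0.00791%) and 0 for TRIM11 (0%). The study's looser rule, a fold of at least 1.5 with an unadjusted p under 0.05, was therefore also counted.

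With a TRIM11 guide, 4 of 16 members passed the looser rule as lower (all tested genes 1.38%) and 0 as higher (all tested genes 1.65%). An unadjusted limma p under 0.05 was reached by 4 members and by 1348 of all genes (10.7%). MAGEA6 differed by -2.41 ± 0.74 (log2, SE), MAGEA3 by -2.01 ± 0.71, SSX1 by -1.76 ± 0.56 and PAGE5 by -0.71 ± 0.22, each with a limma adjusted p of 0.448. MAGEA3 and MAGEA6 can share reads, so they are best read as 1 observation. With close copies summed, 3 of 11 groups of copies or single labels were lower. They were MAGEA3 and MAGEA6 with MAGEA2 and CSAG4,MAGEA12, SSX1 with its copies, and PAGE5 with PAGE2 and PAGE2B. The fitted difference was below 0 for 15 of the 16 members (all tested genes 51.5%), the exception being MAGEC2 at 1.26 ± 1.02, with a median of -0.61 over the members and -0.008 over all genes. MAGEA1, MAGEA11 and MAGEC3 were tested only through KDM5C-KD2, which has no TRIM11 guide, so the choice of members fixed their sign, and the count is a description.

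Without KDM5C-KD2 the 4 genes still passed the looser rule and PAGE2 joined them. PAGE2 reached the mean of 0.5 FPKM only through libraries without a TRIM11 guide, which favours a difference below 0. With KDM5C-KD2 left out, 13 members were left to test. Of these 13, 8 had a fitted difference below 0 (all tested genes 51.4%), with a median of -0.16. The log2 differences for MAGEA6, MAGEA3 and SSX1 shrank to -1.64, -1.25 and -1.10. Without DKD2, 2 of the 4 passed, namely PAGE5 and MAGEA6. MAGEA3 did not pass without DKD1, nor PAGE5 without Control or without TRIM11-KD1. Without both libraries of TRIM11 guide 1, where TRIM11 RNA was not lower, MAGEA6, MAGEA3 and SSX1 passed with PAGE2, PAGE5 did not, and MAGEC2 passed as higher.

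With a KDM5C guide, 1 of 16 members passed the looser rule as lower (all tested genes 1.01%) and 0 as higher (all tested genes 1.12%). The member was SPANXD, at -0.78 ± 0.16 (log2, SE, limma adjusted p = 0.383), and it was also the 1 member with an unadjusted p under 0.05, which 11.1% of all genes had. SPANXD reached the mean of 0.5 FPKM only through the libraries without a KDM5C guide, which favours a difference below 0. Without Control, SPANXD was too low to be tested and PAGE2B passed as lower. PAGE2B, too, reached the mean of 0.5 FPKM only through libraries without a KDM5C guide. MAGEC2 at 1.82 ± 1.02 and PAGE1 at 1.21 ± 0.55 had the highest fitted values, with limma adjusted p of 0.548 and 0.479. PAGE1 reached the mean of 0.5 FPKM only through libraries with a KDM5C guide, which favours a difference above 0. The fitted difference was below 0 for 6 of 16 (all tested genes 49.7%), with a median of 0.12 over the members and 0.001 over all genes. MAGEA1, MAGEA11 and MAGEC3 were tested only through KDM5C-KD2, which carries a KDM5C guide. That favours a difference above 0 for them. Without KDM5C-KD2 the fitted difference was below 0 for 8 of 13 members (all tested genes 49.7%). The median was then -0.30 over the members and 0.002 over all genes. MAGEA3 and MAGEA6, above Control in the KDM5C-KD lines and below the TRIM11-KD lines in the double knockdown lines, came out near 0 in this fit.

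**Figure D4:**
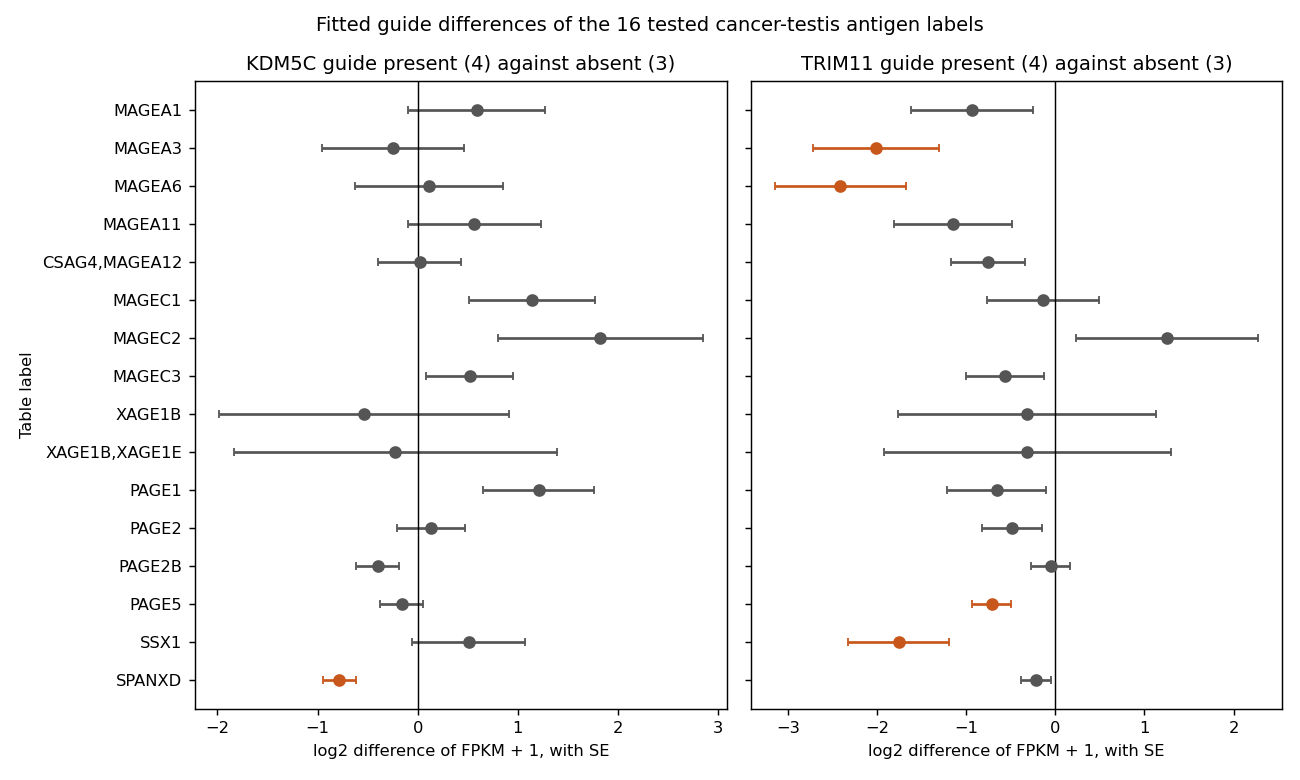
Fitted log2 difference of FPKM + 1 (horizontal axis, points, with SE as bars) for the 16 tested cancer-testis antigen labels, with a KDM5C guide present against absent (left) and a TRIM11 guide present against absent (right), 4 libraries against 3. Orange marks a fold of at least 1.5 with an unadjusted limma p under 0.05, which is SPANXD on the left and MAGEA3, MAGEA6, PAGE5 and SSX1 on the right.

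Whether the KDM5C guide difference itself differed with and without a TRIM11 guide was tested as an interaction of the group means. MAGEA3 gave -3.06 ± 0.97 (log2, SE) and PAGE2B gave -0.93 ± 0.28, both with a limma adjusted p of 0.879. At that limit of 0.05, 2 of all genes passed (0.0158%), no member among them. These 2 of 16 members were the only ones past the looser rule as lower (all tested genes 1.99%), and 0 passed as higher (2.37%), while an unadjusted p under 0.05 was reached by 5.49% of all genes. MAGEA6 gave -2.68 ± 1.22 and did not pass. Both KDM5C-KD lines were above Control while both double knockdown lines were below both TRIM11-KD lines for 5 members (XAGE1B, MAGEA3, MAGEA6, MAGEA11 and PAGE2B), and for 5.14% of all tested genes. Both double knockdown lines were below both KDM5C-KD lines for 8 members (the same 5 with PAGE5, SSX1 and CSAG4,MAGEA12), and for 22% of all tested genes. Neither order was among the planned comparisons, so both counts are descriptions. MAGEA11 was tested only through KDM5C-KD2, which both orders require to be high, and MAGEA3 and MAGEA6 can share reads. PAGE2B was tested only through the TRIM11-KD lines, which favours the first order and an interaction below 0. The XAGE1 sum had neither order, at 1.95 FPKM in KDM5C-KD1 against 2.33 in Control and 2.25 in DKD1.

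Guide 2 was also compared with guide 1 of the same target, with MAGEC2 the member past the looser rule. TRIM11 guide 2 against guide 1 gave 3.07 ± 0.52 (log2, SE, limma adjusted p = 0.335), with 1 member higher (all tested genes 1.78%) and 0 lower (2.43%). KDM5C guide 2 against guide 1, where guide 1 is 1 library, gave 1.78 ± 0.67 (limma adjusted p = 0.966), with 1 member higher (0.918%) and 0 lower (1.1%). The spread for guide 1 is there assumed from the other lines, and with a pseudocount of 0.1 in place of 1 no member was higher. At an adjusted limma p under 0.05, 0 of all genes passed for the TRIM11 guides, with 1395 at an unadjusted p under 0.05 (11%), and 7 for the KDM5C guides (0.0554%), with 542 unadjusted (4.29%). No member passed there.

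Of the labels that share only the letters, CTAGE5 lay between 7.63 and 15.2 FPKM and SSX2IP, on chromosome 1, between 4.07 and 7.99 FPKM. Neither passed the looser rule with a KDM5C or TRIM11 guide, but CTAGE5 was lower by it with TRIM11 guide 2 than with guide 1 (-0.63 ± 0.11, limma adjusted p = 0.335). The other 9 CTAGE labels stayed at or under 0.509 FPKM.

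Other genes around these families were counted in lists. Of 51 other cancer-testis genes in the table, 14 reached 1 FPKM and 13 were tested, none passed the looser rule with a KDM5C guide (all tested genes 1.12% higher and 1.01% lower) and 1 passed as higher with a TRIM11 guide (all tested genes 1.65% higher and 1.38% lower). It was MAEL, a germ cell gene of transposon silencing, which was at 1.45 FPKM in Control, 1.65 and 3.45 in the TRIM11-KD lines, 2.68 and 0.824 in the KDM5C-KD lines, and 4.51 and 4.97 in the double knockdown lines (TRIM11 guide 0.88 ± 0.30, limma adjusted p = 0.448). Of 6 tested type II MAGE genes, which are expressed in many tissues, 1, MAGED1, passed as lower with a KDM5C guide (all tested genes 1.01%) and none with a TRIM11 guide. Its log2 difference was -0.74 ± 0.19 (SE, limma adjusted p = 0.383). MAGED1 was at 116.3, 156.3 and 145.9 FPKM without a KDM5C guide and at 88.2, 84.8, 60.5 and 99.4 with one.

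Of 28 tested genes of DNA methylation and germline-gene repression, 1 passed the looser rule, as higher with a KDM5C guide (all tested genes 1.12%), and none with a TRIM11 guide. It was UHRF1, which brings the maintenance methyltransferase to replicated DNA, at 28.7, 20.4 and 41.8 FPKM in Control and the TRIM11-KD lines, 32.5 and 45.8 in the KDM5C-KD lines and 46.0 and 62.7 in the double knockdown lines (0.68 ± 0.27, limma adjusted p = 0.430). The maintenance enzyme DNMT1 lay between 58.4 and 83.0 FPKM and was at 70.9 in KDM5C-KD2 against 72.4 in Control. Of 9 tested ligases and targets that work with MAGE proteins, none passed with either guide, against the same shares of all genes, and TRIM28 was at 152.2 FPKM in Control and 200.1 in KDM5C-KD2. Of 5 tested epithelial and luminal markers, 1, EPCAM, passed as higher with a KDM5C guide (all tested genes 1.12%), at 10.3 to 12.3 FPKM against 4.03 to 6.77 without one (1.08 ± 0.14, limma adjusted p = 0.199). CDH1 in the same list differed by -0.23 ± 0.21 and did not pass.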

How the data were processed

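RNA-Seq was performed on 7 MDA-MB-231 libraries, 1 Control line and 6 knockdown lines (poly(A), non-directional). The authors trimmed reads with Cutadapt, aligned them to hg19 with HISAT2 2.1.0 and deposited FPKM values from Cufflinks; the annotation is not given in the sources used here. By default Cufflinks divides reads that map to several places among them, which bears on close copies. The mouse tumour table was not used here.

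From the 26006 rows, 27 with date-like symbols were left out, and each label was reduced to its row of highest mean FPKM. log2(FPKM + 1) was fitted with limma on presence of each guide (4 residual degrees of freedom, trended variance), with Benjamini-Hochberg adjustment over all 12636 genes whose mean reached 0.5 FPKM. Folds to Control used FPKM + 0.1. The fit was tested on simulated data. Close copies were transcripts with at least 90% identity over 80% of the shorter by BLASTN, in place of the planned protein comparison; 69 of 85 member symbols had a coding transcript. Sequences are from RefSeq, positions from GENCODE on GRCh37.

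Every member at 1 FPKM or more was named; those with a mean of at least 5 FPKM or past the looser rule were given in every library. Other genes were named when past a rule; CSAG1, DNMT1 and TRIM28 were chosen after their values were seen. Members and lists were chosen with earlier results of these data known. Alternative pseudocounts, filters, scalings, models, copy sums and left-out libraries were tried.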

Additional observations from a re-analysis of the deposited data

Results flagged for a closer look

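Within the 4 libraries that carry a KDM5C guide and the 4 that carry a TRIM11 guide, 1 library of some members lay farther from the rest than 95% of samples of 4 would allow on log2(FPKM + 1) by Dixon's test. Of 34 such checks over the 17 expressed cancer-testis antigen labels, 8 met this. Chance gives about 1 in 20, and of all tested genes 5.12% met it among the libraries with a KDM5C guide and 4.14% among those with a TRIM11 guide. Neither share is a fair rate for these labels, which were chosen for a high value in at least 1 library. The sets share DKD1 and DKD2, XAGE1 enters as a pair of labels, and a label at 0 in all but 1 library meets the limit at any level.

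Among the libraries with a KDM5C guide, KDM5C-KD2 stood above the others for 4 labels. XAGE1B,XAGE1E, taken by its row of highest mean, was at 28.6 FPKM there against 0 to 0.628. Another row of that label was at 6.81 FPKM there and between 0.181 and 1.26 in the others. XAGE1B was at 24.0 FPKM there against 0.247 to 0.504. MAGEA1 was at 7.22 against 0 in each of the others, and MAGEC3 at 3.07 against 0 to 0.245. MAGEA1 and MAGEC3 counted as expressed only through KDM5C-KD2, so they stand apart there by construction. Among the libraries with a TRIM11 guide, TRIM11-KD2 stood above the others for XAGE1B (27.7 FPKM against 0.247 to 0.776). It also did so for XAGE1B,XAGE1E by the row of highest mean (25.1 FPKM against 0 to 0.628). The other row of that label given above was at 0.967 FPKM in TRIM11-KD2 and 2.22 in TRIM11-KD1. In the same set, TRIM11-KD1 stood above the others for MAGEA6 (3.04 FPKM against 0.123 to 0.203). DKD1 did so for MAGEB1,MAGEB4 (0.163 FPKM against 0 in each of the others).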

How the results depend on the processing

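In no alternative did a member reach an adjusted p under 0.05 in limma, and none of the 8 differences between guide present and absent printed for members changed sign. The interaction and guide 2 against guide 1 values were run with a pseudocount of 0.1 only, where they kept their sign. With a TRIM11 guide, the 4 members lower by fold and unadjusted p became 2 to 5 when 1 library was left out, the 2 without DKD2. With a KDM5C guide the 1 lower member became 0 with a mean of at least 1 FPKM, where SPANXD was not tested, and 0 with a fold of 2. The 0 higher members became 1 with a pseudocount of 0.1, in the group means model and without the TRIM11 term (PAGE1 each time), and 0 to 2 when 1 library was left out (MAGEC2 without TRIM11-KD2, PAGE1 without KDM5C-KD1, both without DKD1). With both TRIM11 guide 1 libraries left out, an alternative chosen after seeing the data, PAGE1 passed as higher with KDM5C guides and MAGEC2 with TRIM11 guides (1 each). PAGE1 was tested only through libraries with a KDM5C guide, which favours its calls as higher.

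The line number marks the TRIM11 guide that TRIM11-KD and DKD lines share, but the labels give no shared batch or day for it. Differences of line 2 from line 1 correlated over genes at 0.09 (TRIM11-KD and KDM5C-KD), 0.37 (TRIM11-KD and DKD) and 0.27 (KDM5C-KD and DKD). With the number as a replicate block, which drops Control, MAGEC2 was the 1 member higher with each guide. The lower members were 1 with KDM5C guides (PAGE2B) and 5 with TRIM11 guides. The filter favours PAGE2B as lower with a KDM5C guide.

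For folds to Control in both lines, a fold of 2 left 5 members above in KDM5C-KD, 1 below in TRIM11-KD and 3 below in DKD. Using the mean of the lines gave 2 below in KDM5C-KD, 6 above and 4 below in TRIM11-KD, and 5 above and 9 below in DKD. A pseudocount of 1 gave 0 above and 1 below in TRIM11-KD. Between guides, a pseudocount of 0.1 gave 1 member lower with TRIM11 guide 2 and 0 higher with KDM5C guide 2. The number of expressed labels was 15 to 19 with 1 library left out. The cause of these shifts was not tested. Depth is unknown, so no value has a counting interval.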
